A study of Mus musculus with 6 samples.

Results

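Hair matrix transcription factors and hedgehog signalling genes were examined in mouse dorsal skin as a set of 10 genes, chosen by name: Dlx3, Msx1, Msx2, Foxn1, Hoxc13, Gata3, Ovol1, Shh, Gli1 and Ptch1. All 10 were found among the 55291 genes of the count table. RNA of whole dorsal skin was sequenced at day 40 in 3 wild-type samples, of strain C57BL/6, and 3 samples of strain B6.Cg-Fbn1Tsk/J, whose genotype the labels write as Fbn1+/-. The latter are called Tsk here after the tight-skin allele of Fbn1, the fibrillin 1 gene, which is known as an internal duplication and acts in every cell that expresses Fbn1. That each sample is a separate animal is not stated, so each p-value reflects the spread of these libraries, which may be technical.

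The hair matrix is the pool of dividing epithelial cells at the base of a growing hair follicle, around the dermal papilla. Its cells leave the cycle and form the hair shaft and the inner root sheath, under transcription factors that include homeodomain proteins (Dlx3, Msx1, Msx2, Hoxc13), a forkhead protein (Foxn1), a GATA protein (Gata3) and a zinc finger protein (Ovol1). Sonic hedgehog (Shh) is secreted by matrix cells of growing follicles, and when it binds its receptor Patched (Ptch1), the membrane protein Smoothened (Smo) is released to activate the Gli factors. Gli1 and Ptch1 are themselves transcribed in response, which is why both are widely read as markers of the pathway.

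Among the 10 genes, Dlx3 was the 1 that rose in Tsk skin, to 3.64 times its wild-type level. Msx2 and Hoxc13 stood 1.98 and 1.63 times higher without passing the test, and Gata3 stood at 0.971 times its wild-type level. Shh was at or near 0 counts in all 6 libraries. Of the 9 members that passed the filter on low counts, 1 was called higher and 0 lower (edgeR's quasi-likelihood test, Benjamini-Hochberg adjusted p under 0.05), where 3.42% of the 19971 genes tested were called, 2.72% higher and 0.696% lower. The 9 log2 fold changes had a median of 0.38, against -0.03 over all genes tested, and 8 of the 9 were above 0, as were 47.0% of all genes tested. The members were chosen with earlier results of these data known, so these shares describe the set and do not test it. An unadjusted p under 0.05 was reached by 3 members, where 20.1% of all genes reached it.

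Library totals ran from 17561453 to 19219814 counts. The Fbn1 transcript was higher in every Tsk library (1450 to 2053 CPM) than in every wild-type library (261 to 351 CPM), at a log2 fold change of 2.54 ± 0.24 (SE, adjusted p = 0.00401 in edgeR). CPM here means a count scaled to the library total and corrected by TMM, which sets libraries to a common level for most genes. Whole skin mixes epidermis, follicles, dermis, fat and muscle, so fewer cells of a type and less RNA per cell cannot be told apart. Keratinocyte markers were abundant in both groups, the 12 genes of that list summing to 5398 to 8122 CPM in wild type and 4902 to 8518 CPM in Tsk. Genes of 10 skeletal muscle markers took 15.8 to 22.9% of counts in wild type and 13.7 to 15.6% in Tsk, and the titin gene Ttn carried most of that sum. As a mean of log2 levels the muscle list overlapped between the groups, and 2 of its 10 genes, Myh1 and Myh2, stood above 0 in log2 fold change. Leaving these 10 genes and the ribosomal RNA genes out of the fit gave 688 calls against 683, with Dlx3 at a log2 fold change of 1.87 in both. The part of muscle cells in the levels of the members was not tested.

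The homeodomain members share a DNA-binding segment, the homeobox, and those of Dlx3, Msx2 and Hoxc13 are shown to let their letters be compared. Each is 180 bases of the coding strand from the GENCODE M21 transcript (mm10 build), 5′ to 3′, with capitals on the 18 bases that encode the core of the helix that contacts DNA. The Dlx3 homeobox lies in exons 2 and 3 on chromosome 11 (plus strand, 95121767 to 95123456 with the intron between them), and the other 2 each lie in exon 2. Those of Msx2 (chromosome 13, 53468370 to 53468549, minus strand) and Hoxc13 (chromosome 15, 102927210 to 102927389, plus strand) are unbroken.
Dlx3: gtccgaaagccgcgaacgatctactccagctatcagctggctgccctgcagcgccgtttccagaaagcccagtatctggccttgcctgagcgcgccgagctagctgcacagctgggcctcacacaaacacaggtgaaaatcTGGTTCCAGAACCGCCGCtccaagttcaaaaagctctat
Msx2: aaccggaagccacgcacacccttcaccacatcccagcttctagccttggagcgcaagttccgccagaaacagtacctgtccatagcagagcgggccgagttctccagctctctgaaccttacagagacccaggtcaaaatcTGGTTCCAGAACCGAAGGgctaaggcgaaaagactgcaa
Hoxc13: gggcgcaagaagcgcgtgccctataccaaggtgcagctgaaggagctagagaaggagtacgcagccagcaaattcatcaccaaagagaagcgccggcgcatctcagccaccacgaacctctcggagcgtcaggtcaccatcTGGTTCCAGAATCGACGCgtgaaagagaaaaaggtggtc

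Dlx3 and Msx2 were the closest of the 3 pairs, with 113 of 180 bases identical (62.8%) and a longest identical run of 20 bases. Hoxc13 matched Msx2 at 53.3% and Dlx3 at 47.2% of positions. Deposited counts of Msx2 were not whole numbers, while those of Dlx3 were whole in 5 libraries and those of Hoxc13 in all 6. How the authors split reads that fit several genes is not given in the sources used here.

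Dlx3 encodes a homeodomain factor of the hair matrix, the shaft, the inner root sheath and the upper epidermal layers, and lies on chromosome 11 from 95120119 to 95125296 (mm10, plus strand). Its 3 wild-type libraries, replicates 1, 2 and 3, held 54, 48 and 41 counts, and Tsk replicates 4, 5 and 6 held 294, 157 and 193. Every Tsk library was above every wild-type library, and replicate 4 stood highest. The levels were 2.89 ± 0.299 CPM in wild type and 10.6 ± 4.15 CPM in Tsk (SD, n = 3 each). The log2 fold change was 1.87 ± 0.29 (SE, adjusted p = 0.0159 in edgeR). Without wild-type replicate 3 the fold change was 1.80 and the call was lost (edgeR adjusted p = 0.0826). That fit called few genes at all, 47 higher and 16 lower.

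**Figure D1:**
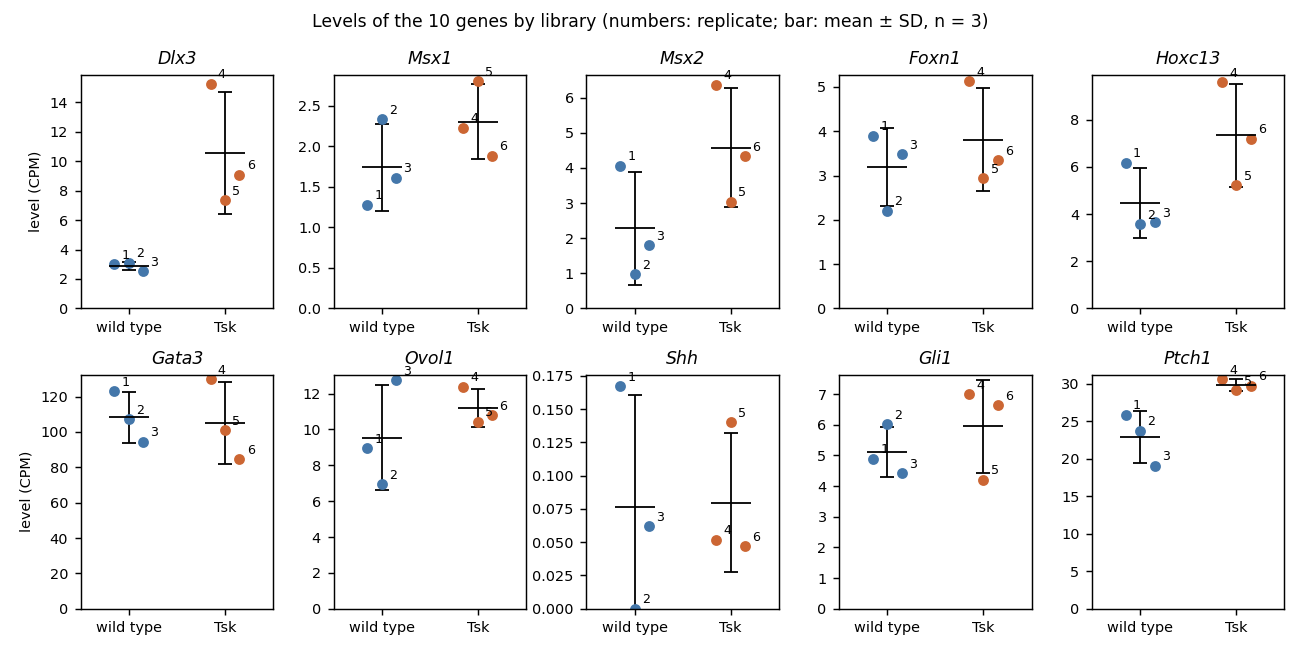
Level of each of the 10 genes in each library, in TMM-scaled CPM (vertical axis from 0, scaled separately per gene), for wild type (replicates 1 to 3) and Tsk (replicates 4 to 6), with mean ± SD. The groups stand apart for Dlx3 and Ptch1 and overlap for the other 8 genes.

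Msx2, a homeodomain factor needed for shaft differentiation and hair retention, is on chromosome 13 from 53466884 to 53473074 (minus strand). It had 73, 15 and 29 counts in the wild-type libraries and 123, 65 and 92 in the Tsk libraries. Wild-type replicate 1 lay above Tsk replicate 5 once scaled, at 4.06 against 3.04 CPM, so the groups overlapped. The means were 2.28 ± 1.60 and 4.58 ± 1.68 CPM (SD, n = 3 each), with a log2 fold change of 0.99 ± 0.48 (SE, adjusted p = 0.298 in edgeR). The value depended on single libraries, being 1.74 without wild-type replicate 1, where it passed (edgeR adjusted p = 0.0461), and 0.64 without wild-type replicate 2. Its relative Msx1, on chromosome 5 from 37820485 to 37824583 (minus strand), had 23, 36 and 26 counts in wild type against 43, 60 and 40 in Tsk. The levels of Msx1 were 1.74 ± 0.538 and 2.31 ± 0.466 CPM (SD, n = 3 each), overlapping, with a log2 fold change of 0.41 ± 0.30 (SE, adjusted p = 0.493 in edgeR).

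Hoxc13, which activates hair keratin genes in the shaft, is on chromosome 15 from 102921103 to 102928814 (plus strand). It held 111, 55 and 59 counts in wild type against 185, 112 and 153 in Tsk. As with Msx2, wild-type replicate 1 (6.18 CPM) exceeded Tsk replicate 5 (5.24 CPM), and the means were 4.47 ± 1.48 and 7.34 ± 2.18 CPM (SD, n = 3 each). The log2 fold change of 0.71 ± 0.29 (SE) had an unadjusted p of 0.0394 and an adjusted p of 0.223 in edgeR. Without Tsk replicate 4 it was 0.47.

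Foxn1, the nude gene, promotes differentiation of matrix cells toward the shaft and lies on chromosome 11 from 78357577 to 78386558 (minus strand). Counts were 70, 34 and 56 in wild type and 99, 63 and 71 in Tsk. The levels of 3.19 ± 0.882 and 3.81 ± 1.17 CPM (SD, n = 3 each) overlapped, with a log2 fold change of 0.25 ± 0.30 (SE, adjusted p = 0.700 in edgeR). Without Tsk replicate 4 the sign turned, to -0.03.

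Gata3 directs the inner root sheath lineage and is also a factor of T cells and innate lymphoid cells. The gene lies on chromosome 2, the chromosome of Fbn1, from 9857078 to 9890034 (minus strand). It was the member with the most counts, 1521 to 2212 in wild type and 1795 to 2506 in Tsk. Its levels of 108 ± 14.3 and 105 ± 23.0 CPM (SD, n = 3 each) overlapped throughout, with a log2 fold change of -0.04 ± 0.18 (SE, adjusted p = 0.929 in edgeR). With library totals alone as the scaling the value was 0.21, under which the median gene moved upward by 0.27. The T cell receptor complex genes Cd3e, Cd3d, Cd3g and Cd247 were each below 6 CPM on average, and none of them passed the test. These levels are not set per kilobase of exon, so they are not compared with that of Gata3. The part of T cells and innate lymphoid cells in the Gata3 level was not tested.

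Ovol1, which helps epithelial cells leave the cell cycle, is on chromosome 19 from 5549136 to 5560646 (minus strand). It held 161, 107 and 205 counts in wild type against 239, 223 and 229 in Tsk. Wild-type replicate 3, at 12.7 CPM, was above all 3 Tsk libraries. The means were 9.54 ± 2.94 and 11.2 ± 1.05 CPM (SD, n = 3 each), a log2 fold change of 0.23 ± 0.22 (SE, adjusted p = 0.616 in edgeR). A pseudogene row on the opposite strand, Gm31166, overlaps Ovol1 and held 93 to 159 counts. The strand setting of the counting is not given in the sources used here, so reads of overlapping rows may not be separable.

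Shh, the ligand, lies on chromosome 5 from 28456815 to 28467256 (minus strand). It had 3, 0 and 1 counts in wild type against 1, 3 and 1 in Tsk, and did not pass the filter on low counts. Summed over a group this was 4 counts in wild type, or 0.0808 CPM with an exact 95% Poisson interval of 0.0220 to 0.207, and 5 counts in Tsk, or 0.0807 CPM (0.0262 to 0.188). These intervals cover counting error only. A difference in Shh was not detectable at this depth, and with 3 counts as the lowest reliable number no library could show Shh below 0.140 to 0.194 CPM. An antisense row that overlaps Shh, 9530036O11Rik, held 8 to 18 counts.

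Ptch1, the receptor, lies on chromosome 13 from 63508328 to 63573598 (minus strand). It held 465, 366 and 307 counts in the wild-type libraries and 590, 622 and 632 in the Tsk libraries. All 3 Tsk libraries, at 29.1 to 30.6 CPM, were above all 3 wild-type libraries, at 19.1 to 25.9 CPM. The means were 22.9 ± 3.48 and 29.8 ± 0.754 CPM (SD, n = 3 each), and the log2 fold change of 0.38 ± 0.14 (SE) had an unadjusted p of 0.0221 and an adjusted p of 0.168 in edgeR. With library totals alone it was 0.65 and passed (edgeR adjusted p = 0.0497), under the same upward shift of the median gene by 0.27.

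Gli1, the transcription factor that hedgehog signalling induces, lies on chromosome 10 from 127329882 to 127341974 (minus strand). It held 88, 93 and 71 counts in wild type against 135, 90 and 141 in Tsk. Tsk replicate 5 was the lowest of all 6 libraries at 4.21 CPM, while Tsk replicates 4 and 6 were the highest at 7.0 and 6.63 CPM. The means were 5.11 ± 0.829 and 5.95 ± 1.52 CPM (SD, n = 3 each), with a log2 fold change of 0.22 ± 0.24 (SE, adjusted p = 0.668 in edgeR). Arhgap9 overlaps Gli1 on the opposite strand and held 50 to 213 counts.

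Of the 9 members tested, the groups did not overlap for 2, Dlx3 and Ptch1, both higher in Tsk, where 14.1% of all genes tested were separated upward and 10.6% downward.

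Set per kilobase of exon, so that levels of different genes can be compared, Gata3 led the members in wild type at 27.2 ± 3.60 CPM per kb. Ovol1 followed at 2.74 ± 0.844, then Hoxc13 at 1.82 ± 0.601 and Ptch1 at 1.61 ± 0.245 CPM per kb. Dlx3, Gli1 and Foxn1 lay close together at 1.11 ± 0.115, 1.02 ± 0.166 and 0.993 ± 0.274 CPM per kb, above Msx2 (0.695 ± 0.488), Msx1 (0.563 ± 0.174) and Shh (0.0268 ± 0.0296; all SD, n = 3). Neighbours in this order had separate ranges in 3 places, between Gata3 and Ovol1, between Ptch1 and Dlx3, and between Msx1 and Shh. In Tsk the level of Dlx3 was 4.05 ± 1.59 CPM per kb, in the range of Ovol1 at 3.21 ± 0.300 (SD, n = 3 each).

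Other genes of the hedgehog pathway were taken from a list of 18, of which 17 could be tested. Of these, 2 rose and 0 fell, where 2.72% of all genes tested rose and 0.696% fell. The list's median log2 fold change was 0.34. The groups were apart for 7 of the 17, all higher in Tsk, and 8 had an unadjusted p under 0.05 in edgeR. Over all genes tested, 14.1% were separated upward and 20.1% reached that p. Disp1 encodes the Dispatched transporter that releases hedgehog ligands from the cells that make them. Its libraries stood at 8.29, 10.1 and 7.39 CPM in wild type and 16.3, 17.3 and 21 CPM in Tsk, a log2 fold change of 1.09 ± 0.17 (SE, adjusted p = 0.0159 in edgeR). Gli2, the main activator among the Gli factors, stood at 8.24, 7.65 and 8.14 CPM in wild type and 18.7, 11.6 and 16.3 CPM in Tsk, a log2 fold change of 0.95 ± 0.19 (SE, adjusted p = 0.0327 in edgeR). Both genes were separated between the groups. Disp1 did not pass without wild-type replicate 3 (edgeR adjusted p = 0.0804). Of the 6 fits with 1 library left out, Gli2 passed in 2, those without wild-type replicate 1 or Tsk replicate 5, and its adjusted p was 0.101, 0.133, 0.0831 and 0.0847 in edgeR without wild-type replicates 2 and 3 and Tsk replicates 4 and 6. By limma-voom on all libraries it also missed the threshold (adjusted p = 0.0539).

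Core pathway genes that did not pass are named here after their values were seen. Gas1, a co-receptor for the ligand, stood at 0.66 ± 0.16 (edgeR adjusted p = 0.0637) and passed in DESeq2 (adjusted p = 0.00796). Smo stood at 0.39 ± 0.14 (edgeR adjusted p = 0.159) and the ligand-binding inhibitor Hhip, which hedgehog signalling is known to induce, at 0.65 ± 0.28 (edgeR adjusted p = 0.249; log2 fold change ± SE). In each of these 3 genes the Tsk libraries were above the wild-type libraries. The Gli partner Sufu stood at 0.34 ± 0.13 (log2 fold change ± SE), and its Tsk libraries were also above its wild-type libraries. The related factor Gli3 stood at 0.27 ± 0.16, and the co-receptors Cdon and Boc at 0.29 ± 0.15 and 0.12 ± 0.13 (log2 fold change ± SE), with the groups overlapping. Sufu, Gli3, Cdon and Boc did not pass. Of the other ligands, Dhh, which Schwann cells make, had 37 to 58 counts in wild type and 50 to 80 in Tsk (0.19 ± 0.24, edgeR adjusted p = 0.713), and Ihh had 2 or 3 counts in every library. Schwann cell genes stood at a median log2 fold change of 0.62, with Pmp22 the 1 of 6 that rose, where 2.72% of all genes tested rose. The Pmp22 call was lost without any 1 of wild-type replicates 2 and 3 and Tsk replicates 5 and 6 (edgeR adjusted p up to 0.158).

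**Figure D2:**
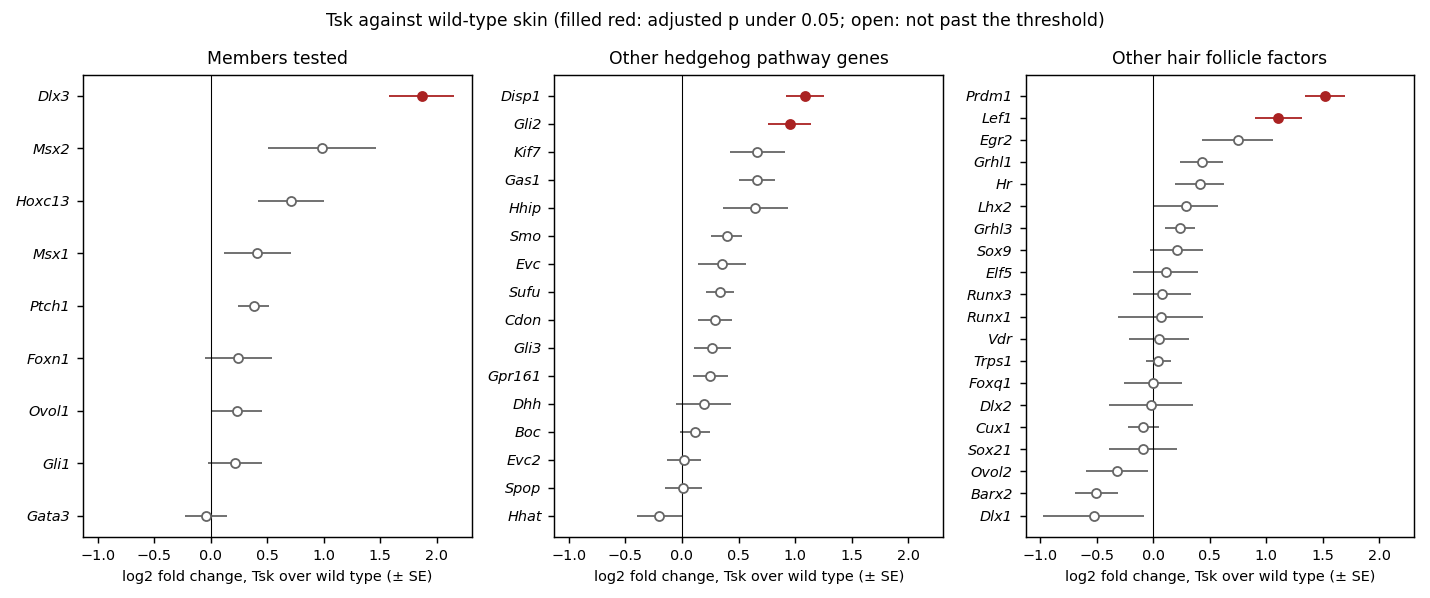
Log2 fold change of Tsk over wild type with its SE for the members tested, 16 of the 17 other hedgehog pathway genes and 20 other hair follicle transcription factors, each ordered by value. Filled red points passed the adjusted p threshold of 0.05, namely Dlx3 at 1.87, Disp1 at 1.09, Gli2 at 0.95, Prdm1 at 1.52 and Lef1 at 1.11.

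Further transcription factors of the follicle came from a list of 22, with 20 tested, of which 2 rose and 0 fell around a median log2 fold change of 0.07. Of all genes tested, 2.72% rose and 0.696% fell. The groups were apart upward for 4 of the 20 and downward for 1, against 14.1% and 10.6% of all genes. An unadjusted p under 0.05 in edgeR was reached by 5 of the 20, against 20.1% of all genes. Prdm1 encodes Blimp1, a repressor found in the inner root sheath, dermal papilla, sebaceous gland and upper epidermis. It stood at 6.23, 4.99 and 5.34 CPM in wild type and 19.1, 14.3 and 14.3 CPM in Tsk, a log2 fold change of 1.52 ± 0.18 (SE, adjusted p = 0.00748 in edgeR). Lef1, the partner of beta-catenin in matrix and shaft precursor cells and in the dermal papilla, stood at 3.51, 2.66 and 2.42 CPM in wild type and 6.89, 5.61 and 6.07 CPM in Tsk. Its log2 fold change was 1.11 ± 0.21 (SE, adjusted p = 0.0286 in edgeR). The groups were apart for both genes. Prdm1 missed the threshold without wild-type replicate 3 (edgeR adjusted p = 0.0545). Of the fits with 1 library left out, Lef1 passed in that without wild-type replicate 1, and ranged from 0.0525 to 0.135 in edgeR adjusted p in the other 5 fits with 1 library left out.

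Marker lists describe the follicle around these genes. The sample information used here does not record whether the follicles were growing, and whether this differed between the groups was not tested. Among 8 tested inner root sheath genes 3 rose, Krt25, Krt27 and Krt71, all from 24 counts or fewer in each wild-type library, and the list's median log2 fold change was 1.13. Of all genes tested, 2.72% rose, 0.696% fell and 20.1% had an unadjusted p under 0.05 in edgeR. Leaving out each library in turn, Krt71 kept its call in 1 fit of 6, that without wild-type replicate 1, and it missed the threshold in DESeq2 (adjusted p = 0.0587) and with no expression filter (adjusted p = 0.178). Krt27 passed in 2 of these 6, those without wild-type replicate 1 or Tsk replicate 4, and missed it by limma-voom (adjusted p = 0.0733). Krt25 missed it without wild-type replicate 3 (edgeR adjusted p = 0.0681). Of 11 tested hair shaft genes Krt87 rose, from 3, 1 and 1 counts to 37, 41 and 27, with a list median of 1.48. Krt87 missed the threshold without wild-type replicate 3 (edgeR adjusted p = 0.0524). Mean log2 levels of both lists were higher in every Tsk library. The summed level of the inner root sheath list overlapped, at 32.8 to 66.4 CPM in wild type and 55.1 to 67.0 CPM in Tsk, with Tchh, the trichohyalin gene and the most abundant of the list, at a log2 fold change of -0.16. In the dermal papilla list 1 of 8 tested genes rose, the protease gene Corin, with a median of 0.35. The list summed to 55.3 to 75.9 CPM in wild type and 87.9 to 113 CPM in Tsk. Vcan carried most of that sum, at 37.8 to 56.0 CPM in wild type and 58.2 to 82.3 CPM in Tsk. The melanocyte list had 0 of 4 tested genes called at a median of 0.98, and 3 of the 4 at an unadjusted p under 0.05 in edgeR, with Dct, a pigment enzyme, at 0.98 ± 0.24 (log2 fold change ± SE, edgeR adjusted p = 0.0644). Cell cycle genes did not pass (0 of 12, with 2 at an unadjusted p under 0.05 in edgeR), all 12 were below 0 and the median was -0.47. Mki67 stood at 56.9 ± 21.7 CPM in wild type and 39.8 ± 5.72 CPM in Tsk (SD, n = 3 each), and wild-type replicate 1 held the highest value at 80.4 CPM. Of 12 epidermis genes, 1 rose, the cornified envelope gene Lor (1.78 ± 0.22, SE, edgeR adjusted p = 0.00792), while the list's median was -0.25. Lor missed the threshold without wild-type replicate 3 (edgeR adjusted p = 0.0545).

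Lists of other cell types of whole skin were read in the same way. The shares over all genes tested were 2.72% higher, 0.696% lower and 20.1% at an unadjusted p under 0.05 in edgeR. The fibroblast list, dermal cells that respond to hedgehog ligands, summed to 6179 to 10874 CPM in wild type and 18265 to 41972 CPM in Tsk. The collagen genes Col1a1, Col1a2 and Col3a1 carried that sum and were each higher in every Tsk library. Pdgfra, Dcn and Lum overlapped between the groups. The list had a median log2 fold change of 1.04, with 0 of 6 genes called and 4 at an unadjusted p under 0.05 in edgeR. The adipocyte list summed to 108 to 153 CPM and 264 to 1687 CPM, and the leptin gene Lep was the 1 of 6 that rose. Lep lost the call without any 1 of the wild-type replicates (edgeR adjusted p 0.153 to 0.168), by limma-voom (adjusted p = 0.0729) and with no expression filter (adjusted p = 0.193). The sebaceous gland list summed to 373 to 664 CPM and 778 to 9149 CPM, with 0 of 7 called and 2 at an unadjusted p under 0.05 in edgeR. Scd1 and Fasn, lipid synthesis genes that adipocytes also express, carried that sum, and without them, a choice made after the values were seen, it overlapped at 76.2 to 162 CPM and 154 to 175 CPM. Tsk replicate 5 held the highest sum of both the adipocyte and the sebaceous list. The list of T cell and innate lymphoid genes, cells that also express Gata3, summed to 57.8 to 69.0 CPM and 75.2 to 97.7 CPM, with Thy1 the 1 of 9 that rose. Without Thy1, also chosen after its values were seen, the sums overlapped at 20.7 to 27.9 CPM and 21 to 25.4 CPM, and the median log2 fold change of all 9 was 0.01, with 4 below 0 and Il7r separated downward. The Thy1 call held in 1 of 6 such fits, that without wild-type replicate 1 (edgeR adjusted p up to 0.108 in the others). Mammary gland genes overlapped between the groups and summed to 14.9 to 33.6 CPM and 21.1 to 25.0 CPM, with 0 of 3 tested genes called and 0 at an unadjusted p under 0.05 in edgeR, and Wap was at 0 in all 6 libraries. The part of these cell types in the values of the 10 genes was not tested.

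**Figure D3:**
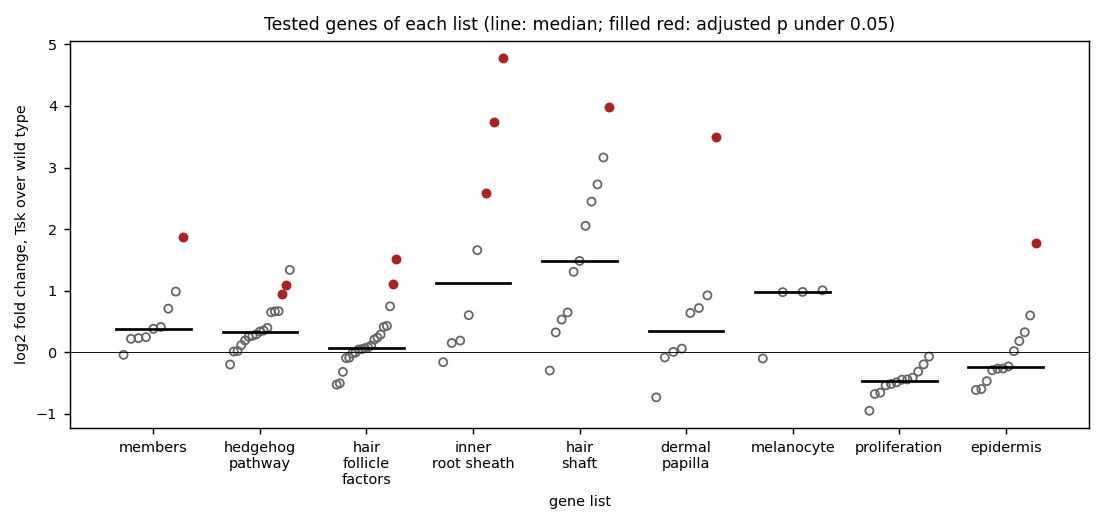
Log2 fold change of Tsk over wild type for each tested gene of 9 lists, with the median as a line and filled red points for adjusted p under 0.05. Medians lie at 1.13 for the inner root sheath and 1.48 for the hair shaft, against 0.38 for the members, -0.25 for the epidermis and -0.47 for proliferation.

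Some members moved together between libraries of the same group. Msx2, Foxn1, Hoxc13, Gata3 and Ptch1 were each highest in Tsk replicate 4 among all 6 libraries, and highest in wild-type replicate 1 within wild type. The summed epidermis list was also highest in these 2 libraries, at 8518 CPM in Tsk replicate 4 and 8122 CPM in wild-type replicate 1. Over the 6 libraries, after the group means were removed, Pearson's r was 0.91 for Msx2 with Hoxc13 and 0.89 for Msx2 with Foxn1, while Msx1 with Msx2 had r of -0.86. Over the 36 pairs of tested members this within-group r ranged from -0.86 to 0.91 with a median of 0.39. These are descriptions of 6 libraries that share depth and tissue mix.

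Levels were also set against the epidermis in the same library, as a member's log2 level minus the mean log2 level of the 12 epidermis genes (0.5 CPM added to each). On this scale 3 of the 10 members did not overlap between groups, all higher in Tsk, namely Dlx3, Msx2 and Hoxc13, where 5.27% of all genes tested were separated upward and 2.54% downward. Dlx3 differed by 1.65, from -6.31 ± 0.262 in wild type to -4.66 ± 0.233 in Tsk (SD, n = 3 each). Msx2 differed by 0.98, with Tsk replicate 5 at -6.08 just above wild-type replicate 1 at -6.10. Hoxc13 differed by 0.67, from -5.79 ± 0.224 to -5.13 ± 0.277 (SD, n = 3 each). Ptch1 overlapped here, at -3.53 ± 0.251 and -3.14 ± 0.364, since Tsk replicate 4 was at -3.55. An exact two-sided permutation test gave p = 0.1 for Dlx3, Msx2 and Hoxc13, which is the smallest that 3 against 3 libraries allow, over 10 comparisons. Gata3 and Gli1 differed by -0.05 and 0.19 (exact permutation p = 0.6 and 0.5). Against Krt5 and Krt14 alone, the basal keratins, every member's difference was larger by 0.63, so that Dlx3 stood at 2.29, Msx2 at 1.62, Hoxc13 at 1.30, Foxn1 at 0.86 and Gata3 at 0.58. Foxn1 then also reached the smallest possible exact permutation p of 0.1. Krt5 and Krt14 themselves stood at -0.60 and -0.61 in log2 fold change, without passing. The share of all genes separated on this second scale was not computed, so the Foxn1 value has no background to be read against.

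**Figure D4:**
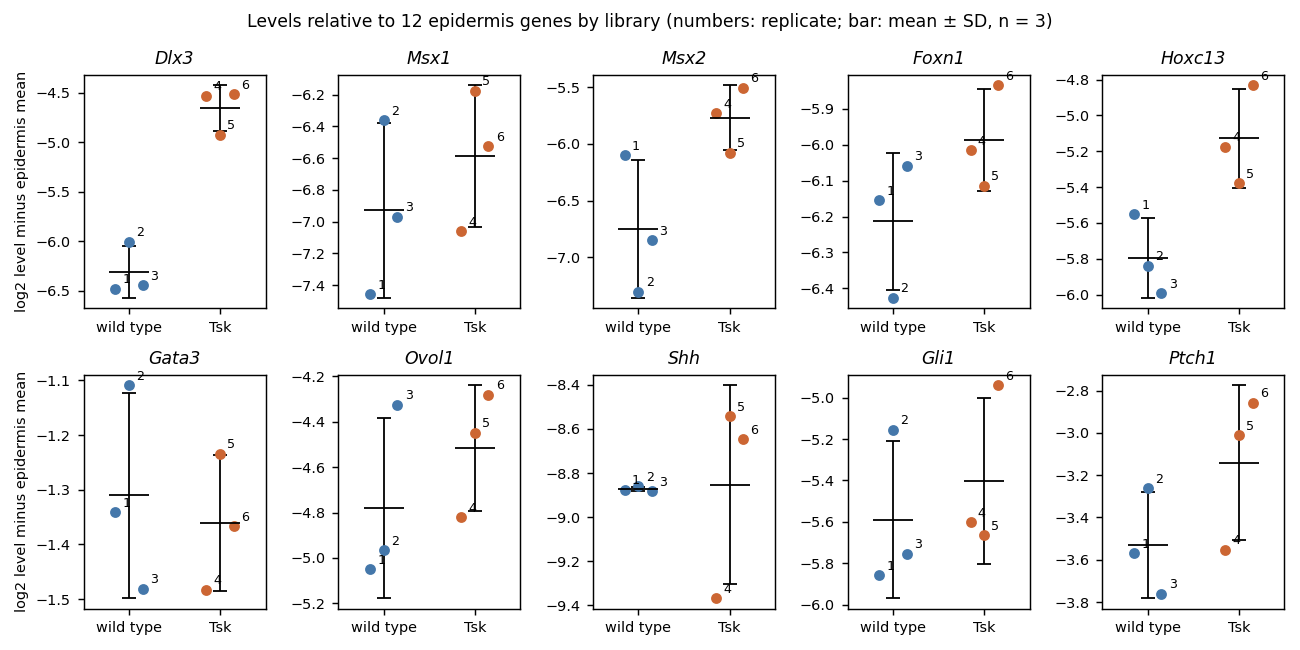
Log2 level of each member minus the mean log2 level of 12 epidermis genes in each library (vertical axis, scaled separately per gene and not from 0), for wild type (replicates 1 to 3) and Tsk (replicates 4 to 6), with mean ± SD. All Tsk points lie above all wild-type points for Dlx3, Msx2 and Hoxc13. Shh is near the added 0.5 CPM, so its points mostly trace the epidermis mean.

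Fold changes were compared across 6 fits that each left out 1 library and 12 other scalings, filters or tools. Dlx3 ran from 1.51 to 2.13 and passed in 5 of the 6 and in all 12. Msx2 ran from 0.64 to 1.74, Hoxc13 from 0.47 to 1.04, Msx1 from 0.24 to 0.71, Ptch1 from 0.27 to 0.67, Ovol1 from 0.06 to 0.54 and Gli1 from 0.09 to 0.50, all above 0. Foxn1 ran from -0.03 to 0.52 and Gata3 from -0.22 to 0.22, so neither kept its sign.

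**Figure D5:**
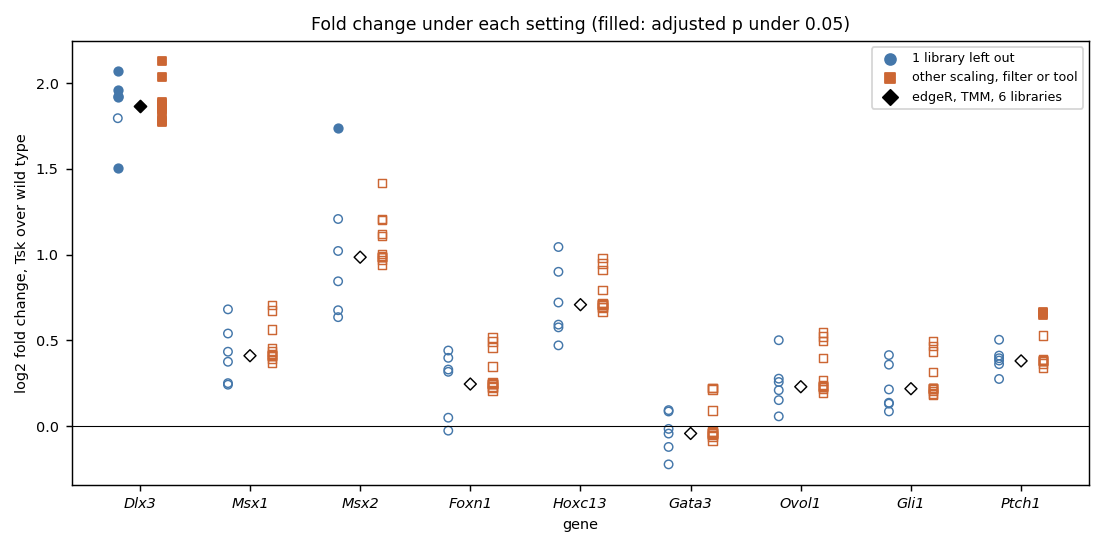
Log2 fold change of Tsk over wild type (vertical axis) for each tested member with 1 library left out (circles), under other scalings, filters or tools (squares) and in the 6-library edgeR fit (diamond), filled where the adjusted p was under 0.05. Dlx3 stays between 1.51 and 2.13, while Foxn1 and Gata3 cross 0.

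The 5 genes outside the lists whose pattern was most like the mean standardised level of the members were Tmprss13, Il18, Fam57a, Lrrc49 and Slc39a6, with Pearson's r of 0.990, 0.989, 0.989, 0.988 and 0.987 over the 6 libraries. With 15209 genes compared, 53 reached at least 0.95. None of the 5 passed the test between groups. Slc39a6, a zinc transporter, stood at 15.2 ± 1.4 CPM in wild type and 23.0 ± 4.53 CPM in Tsk (SD, n = 3 each, edgeR adjusted p = 0.0870).

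Promoter windows from RefSeq (GRCm38.p6, 250 bases before to 50 after a gene's start) were matched for 5 of the 10 members, Gata3, Msx1, Foxn1, Msx2 and Ptch1. The GLI motif GACCACCCA was found on neither strand in any of the 5, Ptch1 included, and in 0.253% of the 32851 windows of the table. On both strands, the homeodomain motif TAATTG was also in none of the 5 and in 8% of all windows. The motif of LEF1, CTTTGAA, was in none of the 5 and in 5.14% of all. The GATA motif AGATAA, in 11.2% of all windows, and the TATA box TATAAA, in 13.6%, were likewise in none of the 5. The related homeodomain motif TAATTA, added after the windows had been seen, was in Foxn1 and Msx2 and in 5.29% of all windows. It is its own reverse complement and begins 29 bases before the Foxn1 start and 187 bases before the Msx2 start. Parts of these windows are shown because they hold this motif, which is in capitals. They are the 250 bases before the Foxn1 start (chr11:78386609-78386858, minus strand) and 30 bases around the Msx2 match (chr13:53472950-53472979, minus strand).
Foxn1: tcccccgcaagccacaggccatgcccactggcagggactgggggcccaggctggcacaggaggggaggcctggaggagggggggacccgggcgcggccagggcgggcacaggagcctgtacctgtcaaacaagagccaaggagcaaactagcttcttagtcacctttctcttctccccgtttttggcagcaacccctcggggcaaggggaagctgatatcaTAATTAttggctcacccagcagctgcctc
Msx2: tgactgctcctgTAATTAactcctaattta

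The Msx2 stretch lies inside an exon of the longer GENCODE gene model, so it is upstream only of the RefSeq start. For Foxn1 the whole window, 78386559 to 78386858, lies upstream of the GENCODE gene, which ends at 78386558. The distances given are therefore from the RefSeq starts only. A match is a description of these letters and not of binding.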

How the data were processed

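RNA of 6 dorsal skin samples was measured, 3 per group, grouped by the sample titles. Per the labels' protocols, libraries were made from ribosome-depleted total RNA with a stranded kit. Per the submitters' processing notes, bcl2fastq 2.19.1.403, STAR and Partek 7.0 were used with mm10; which gene models and strand were counted is not given in the sources used here. Expected counts per gene were deposited by the authors, 34.8 to 37.3% of them not whole per library, which were rounded before testing. The authors' CPM values (within 0.474% of recomputed CPM) and the authors' TMM-normalised signal (CPM times 1 factor per library, within 0.792%) served as alternatives; the deposited TPM values were not used. Gene ends in the table lie 1 base past the GENCODE M21 ends and were corrected.

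Counts were tested with edgeR 4.0.16 (R 4.3.3), using the robust quasi-likelihood F-test with TMM factors (0.823 to 1.03 in wild type, 1.06 to 1.13 in Tsk), and a filter with minimum count 10 and minimum total 15, leaving 19971 genes. The SE of a fold change is its size over the square root of F. Libraries of a group differed by a chi-square of at least 8.02 per degree of freedom, so none was counted as a duplicate. The fit was tested on simulated data. Alternatives were other scalings and filters, DESeq2 1.42.0, limma 3.58.1 (voom, and trend on log2 of deposited values plus 0.5 or 0.1) and leaving out each library.

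The 16 gene lists, the members among them, were chosen with earlier results of these data known. Of their 165 symbols, 164 matched a row. Named genes are all members, the list genes past the threshold (up to 4 per list) or the 2 most abundant, Fbn1, and the 5 genes most like the members' mean. Other hedgehog pathway, T cell, muscle, mammary, inner root sheath, dermal papilla and fibroblast genes were named after their values were seen. 1 gene of the hedgehog list enters the list's counts and is not reported here by itself.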

Additional observations from a re-analysis of the deposited data

How the results depend on the processing

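No paired analysis was possible because the labels give the groups no shared replicate numbers. Of all genes, 544 were called higher and 139 lower; without 1 library the counts ran from 47 to 763 higher and from 16 to 618 lower. Other settings gave 1695 higher (library totals alone), 844 higher and 313 lower (no expression filter), 1136 higher and 411 lower (DESeq2), and 1166, 1813 and 1787 higher for limma-trend on deposited TMM values plus 0.5 and on deposited CPM plus 0.5 and plus 0.1. Calls were 79.6% higher in the 6-library fit, 55.2% without wild-type replicate 1, and 94.6% with library totals alone, where the median gene moved by 0.27 (log2). Members called higher were 1, with 0 to 2 when 1 library was left out, and 2 with library totals alone or on deposited CPM plus 0.5 or 0.1, where Ptch1 joined Dlx3. Hedgehog pathway genes called higher were 2, with 0 to 4 when 1 library was left out, 4 with library totals alone, no filter, DESeq2 or limma-trend on deposited TMM values, 5 on deposited CPM plus 0.5 or 0.1, and 1 by limma-voom. Follicle transcription factors called higher were 2, with 0 to 2 when 1 library was left out. Gata3 (-0.04 with all libraries) turned positive at 0.21 with library totals alone and at 0.091, 0.22 and 0.22 by limma-trend on deposited TMM values, CPM plus 0.5 and CPM plus 0.1. With 1 library left out it ran from -0.22 to 0.093, positive when that was wild-type replicate 1 or Tsk replicate 6. It stood at 0.58 relative to Krt5 and Krt14 alone. With 1 library left out, Foxn1 ran from -0.027 (without Tsk replicate 4) to 0.44. The causes were not tested. Depth limits Shh, at 3 counts or fewer per library.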
